A study of Mus musculus with 3 samples.

Results

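The genes described here are the cathepsins *Ctsa*, *Ctsb*, *Ctsc*, *Ctsd*, *Ctsh*, *Ctsk*, *Ctsl*, *Ctss* and *Ctsz* and the gene for legumain, *Lgmn*. They were chosen by name, matched by Ensembl gene ID, and are 10 of the 32285 genes in the count files. Single-cell RNA-Seq had been performed on dissociated, unsorted skin wound tissue of C57BL/6J adult male mice, with no transgene or drug, on Days 3, 7 and 14 after wounding. Wound pieces were pooled before dissociation, and each day is 1 library, so the spread between animals or libraries is unknown and differences between days have no replicate behind them. The wound is described as excisional in the study's methods and as incisional in the series' design text.

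Levels are given as CPM, the number of UMIs (unique molecular identifiers, each standing for 1 captured 3′ transcript end) of a gene per 1000000 UMIs of the cells summed. The 95% intervals are exact intervals for counting error, they do not cover differences between animals or libraries, and no p-value is given. The counts come from 3′ ends and were not scaled by transcript length, so values are compared mainly within a gene. Sums over genes, and the order of different genes as among the inhibitors, are in captured UMIs and carry this limit. The libraries of Days 3, 7 and 14 held 5158, 22924 and 16611 barcodes, and 4360, 19590 and 13510 were kept, with 35408080, 100373873 and 97464925 UMIs. Between 19 and 111 barcodes occurred in a given pair of libraries. Cells were clustered without the 10 genes and named from fixed markers, hence "-like".

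Cathepsins are proteases that mostly work in the acid interior of endosomes and lysosomes. Cathepsins B, C, H, K, L, S and Z are cysteine proteases of the papain family, cathepsin D is an aspartic protease, cathepsin A is a serine carboxypeptidase, and legumain is an asparaginyl endopeptidase that also cuts other lysosomal proteases to their mature chains. All are made as inactive precursors, are sorted to the lysosome largely through mannose 6-phosphate receptors, and the cysteine proteases among them are held in check outside it by cystatins and stefins. In macrophages they digest engulfed material. Cathepsin S trims the invariant chain of MHC class II molecules, and cathepsin K cuts triple-helical collagen and is best known from osteoclasts.

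Macrophage-like cells numbered 2722, 9478 and 3151 on Days 3, 7 and 14, and fibroblast-like cells 405, 5967 and 7456. All 8 macrophage markers passed 50 CPM in the macrophage-like cells of each library, and all 8 fibroblast markers did so in the fibroblast-like cells. The depth of the classes differed, with a median of 44354 UMIs per fibroblast-like cell on Day 3, 10296 on Day 7 and 9592 on Day 14, against 4073, 2542 and 3602 per macrophage-like cell. Fibroblast markers in macrophage-like cells summed to 420.1, 3772 and 5125 CPM on Days 3, 7 and 14, and macrophage markers in fibroblast-like cells to 78.2, 254 and 91.2 CPM.

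Taken as a sum, and not gene by gene, the 10 genes were highest in macrophage-like cells, most of all on Day 3. The gap of this sum to fibroblast-like cells was narrowest on Day 14. Together they took 2.17% of all UMIs of macrophage-like cells on Day 3, 1.80% on Day 7 and 0.989% on Day 14. In fibroblast-like cells the same sum was 0.24%, 0.316% and 0.348%. In dendritic cell-like cells it was 0.555%, 0.393% and 0.296%, and in neutrophil-like cells 0.3% on Day 3 and 0.411% on Day 7. The epithelial cell-like cells of Day 14, with 0.0939%, and the T cell-like cells, with 0.116% on that day, held the smallest sums among the named classes of 50 or more cells.

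**Figure D1:**
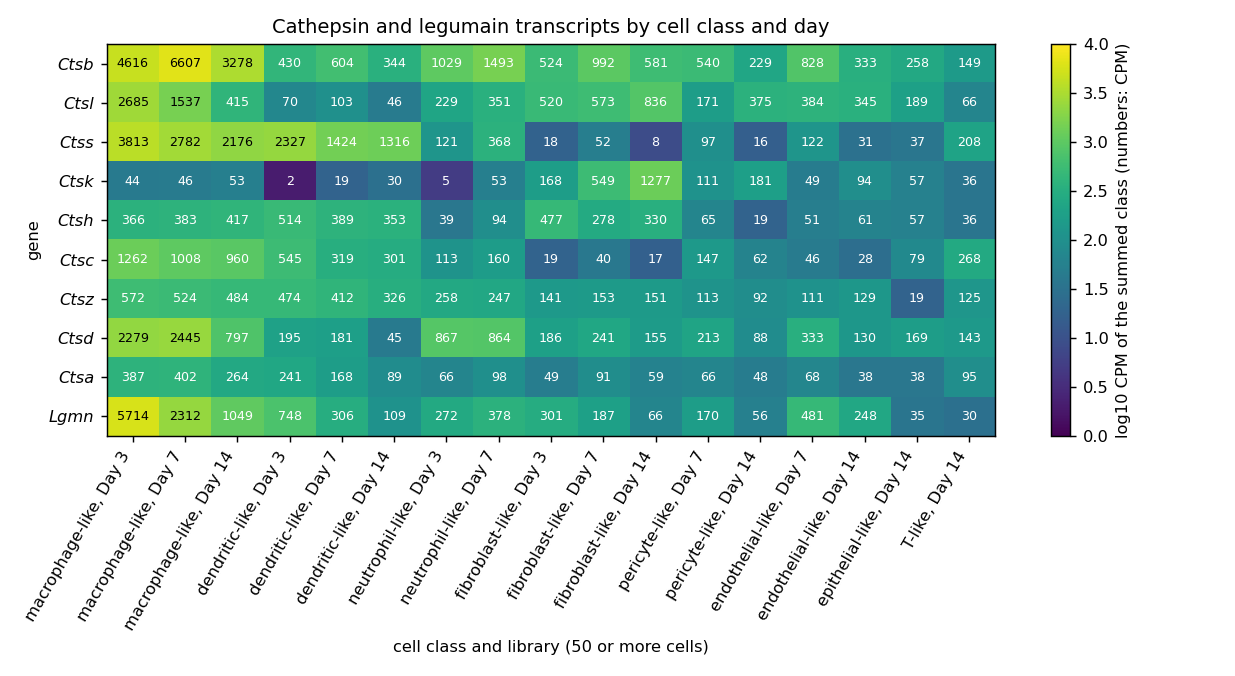
Level of each gene (rows) in each cell class of each library with 50 or more cells (columns); colour is log10 of the CPM of the summed class and the printed number is the CPM. *Ctsk* is the row whose brightest cell is fibroblast-like, at 1277 CPM on Day 14, while *Lgmn* is brightest in macrophage-like cells on Day 3 at 5714 CPM.

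Within each library, macrophage-like cells exceeded fibroblast-like cells at least 2-fold for 8 of 10 genes on Day 3, against 30% of the 4031 genes tested, for 8 of 10 on Day 7, against 26.8% of 3643, and for 7 of 10 on Day 14, against 27.3% of 3413. *Ctsk* was at least 2-fold lower in macrophage-like cells in each library, where 24.0%, 22.3% and 22.0% of the genes tested were. *Ctsl* joined it on Day 14. *Ctsh* was the gene for which the classes were nearest on all 3 days. A gene was tested where it reached 50 CPM in 1 of the sums and 10 UMIs in both.

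The promoters were searched for CACGTG, the core of the element bound by the MiT transcription factors (*Mitf*, *Tfeb*, *Tfe3*, *Tfec*), which switch on many lysosomal genes. RefSeq promoters of build GRCm38.p6, 300 bases each with 250 before the start site, were given for 8 of the 10 genes. CACGTG, which reads the same on both strands, occurred in a promoter of *Ctsa*, *Ctsd*, *Ctsl* and *Lgmn*, that is in 4 of 8, and in 8.09% of the 27025 genes with a promoter. The AP-1 motif TGANTCA occurred in none of the 8 genes and in 8.97% of all, and the PU.1 motif AGAGGAA, on either strand, in none of the 8 and in 11.9% of all. Only these letters were searched, so near forms of either site were not counted and their absence is not shown. *Ctsb* and *Ctsh* had no promoter entry. *Ctsa* and *Lgmn* had 2 annotated starts each, and only 1 of the 2 carried the motif. In both, the promoter without it spanned the start of the gene in the GENCODE annotation (chr2:164832622-164832921 and chr12:102439679-102439978). The promoters of *Ctsa* and *Lgmn* with the motif lay inside the annotated gene, as did the single promoter given for *Ctsl*. A match describes the letters, not binding. The 4 promoters with a match are shown because members with and without it are compared over days further on, and they are given 5′ to 3′ with CACGTG in capitals. That of *Ctsa* is chr2:164833523-164833822, plus strand, that of *Ctsd* chr7:142387778-142388077, minus strand, that of *Ctsl* chr13:64370471-64370770, minus strand, and that of *Lgmn* chr12:102439043-102439342, minus strand.
Ctsa: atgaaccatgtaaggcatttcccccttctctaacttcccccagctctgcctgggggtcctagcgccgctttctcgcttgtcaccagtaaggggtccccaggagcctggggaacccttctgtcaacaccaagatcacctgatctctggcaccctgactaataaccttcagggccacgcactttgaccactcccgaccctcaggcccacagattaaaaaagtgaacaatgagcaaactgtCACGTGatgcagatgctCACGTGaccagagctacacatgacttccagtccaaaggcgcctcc
Ctsd: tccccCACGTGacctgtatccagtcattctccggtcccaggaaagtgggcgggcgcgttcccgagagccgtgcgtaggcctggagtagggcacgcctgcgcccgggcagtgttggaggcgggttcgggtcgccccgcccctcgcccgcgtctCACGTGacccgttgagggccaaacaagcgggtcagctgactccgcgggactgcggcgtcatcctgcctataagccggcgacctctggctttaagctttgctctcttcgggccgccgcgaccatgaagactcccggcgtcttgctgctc
Ctsl: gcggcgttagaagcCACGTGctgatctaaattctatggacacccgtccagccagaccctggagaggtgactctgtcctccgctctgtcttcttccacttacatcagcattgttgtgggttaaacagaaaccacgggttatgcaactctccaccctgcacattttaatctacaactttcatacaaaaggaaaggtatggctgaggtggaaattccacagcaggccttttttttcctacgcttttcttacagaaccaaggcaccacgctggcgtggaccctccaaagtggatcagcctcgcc
Lgmn: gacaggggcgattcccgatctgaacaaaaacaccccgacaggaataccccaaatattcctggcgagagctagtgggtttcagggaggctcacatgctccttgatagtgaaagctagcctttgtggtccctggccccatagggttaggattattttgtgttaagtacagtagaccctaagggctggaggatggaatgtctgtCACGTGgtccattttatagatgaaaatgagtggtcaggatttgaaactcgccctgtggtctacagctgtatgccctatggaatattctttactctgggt

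The first copy in *Ctsd* began 245 bases before the start site and the other 98 bases before it. The copy in *Ctsl* began 236 bases before its start and that in *Lgmn* 49 bases before, while those in *Ctsa* began 12 bases before and 5 bases after.

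Gene positions are those of the GENCODE annotation of GRCm38 (mm10). *Lgmn* (ENSMUSG00000021190, chr12:102394084-102439813, minus strand) had the widest range over days in macrophage-like cells after *Ctsl*. Its level there was 5714 CPM (95% interval 5672 to 5757) on Day 3, 2312 CPM (95% interval 2294 to 2330.1) on Day 7 and 1049 CPM (95% interval 1031 to 1067) on Day 14. It was 2.47-fold lower on Day 7 than on Day 3 (log2 ratio -1.31, 95% interval -1.32 to -1.29) and 2.20-fold lower on Day 14 than on Day 7 (log2 ratio -1.14, 95% interval -1.17 to -1.11). Legumain was the single member at least 2-fold lower on Day 7 than on Day 3 in macrophage-like cells, 1 of 9 tested, against 7.85% of 3260 genes, and 0 of 9 were 2-fold higher, against 1.87%. The median log2 ratio of all genes tested was -0.25 in this comparison. The same order of days was seen in fibroblast-like cells, at 301, 187 and 66.3 CPM, and in dendritic cell-like cells, at 748, 306 and 109 CPM. In endothelial cell-like cells *Lgmn* was 481 CPM (95% interval 450.3 to 514) on Day 7 and 248 CPM (95% interval 223 to 275) on Day 14, the highest level outside the macrophage-like cells on both days. *Lgmn* was thus lower on Day 14 than on Day 7 in each of the 5 classes with 50 or more cells on both days, including pericyte-like cells at 169.5 and 55.9 CPM. Macrophage markers were lower as well, from 519 to 141 CPM in pericyte-like cells and from 585 to 338 CPM in endothelial cell-like cells, and their part in these *Lgmn* values was not tested.

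*Ctsl* (ENSMUSG00000021477, chr13:64359337-64370890, minus strand), an endopeptidase of broad specificity, changed its main cell class by CPM between Day 3 and Day 14. In macrophage-like cells it was 2685 CPM (95% interval 2656 to 2714) on Day 3, 1537 CPM (95% interval 1522 to 1552) on Day 7 and 415 CPM (95% interval 404 to 427) on Day 14. In fibroblast-like cells it was 520.3 CPM (95% interval 510.3 to 530.5) on Day 3, 573 CPM (95% interval 567 to 579) on Day 7 and 836 CPM (95% interval 829 to 843) on Day 14. The macrophage-like level was therefore 5.16-fold that of fibroblast-like cells on Day 3 (log2 ratio 2.37, 95% interval 2.34 to 2.40), 2.68-fold on Day 7 (log2 ratio 1.42, 95% interval 1.40 to 1.44) and 2.01-fold below it on Day 14 (log2 ratio -1.01, 95% interval -1.05 to -0.97). Over 15 alternative settings the Day 14 log2 ratio ran from -1.23 to -0.70, always below 0 but not always past 2-fold. Macrophage-like cells held 75.2% of all *Ctsl* UMIs on Day 3 and 7.46% on Day 14, and fibroblast-like cells 23.5% and 88.3%. Such a share moves with cell number as well as with level, and fibroblast-like cells went from 9.29% to 55.2% of the kept cells. On Day 3, 405 fibroblast-like cells held 10294 *Ctsl* UMIs and 2722 macrophage-like cells 32880. Per cell the fibroblast-like count was thus higher, the reverse of the order by CPM.

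**Figure D2:**
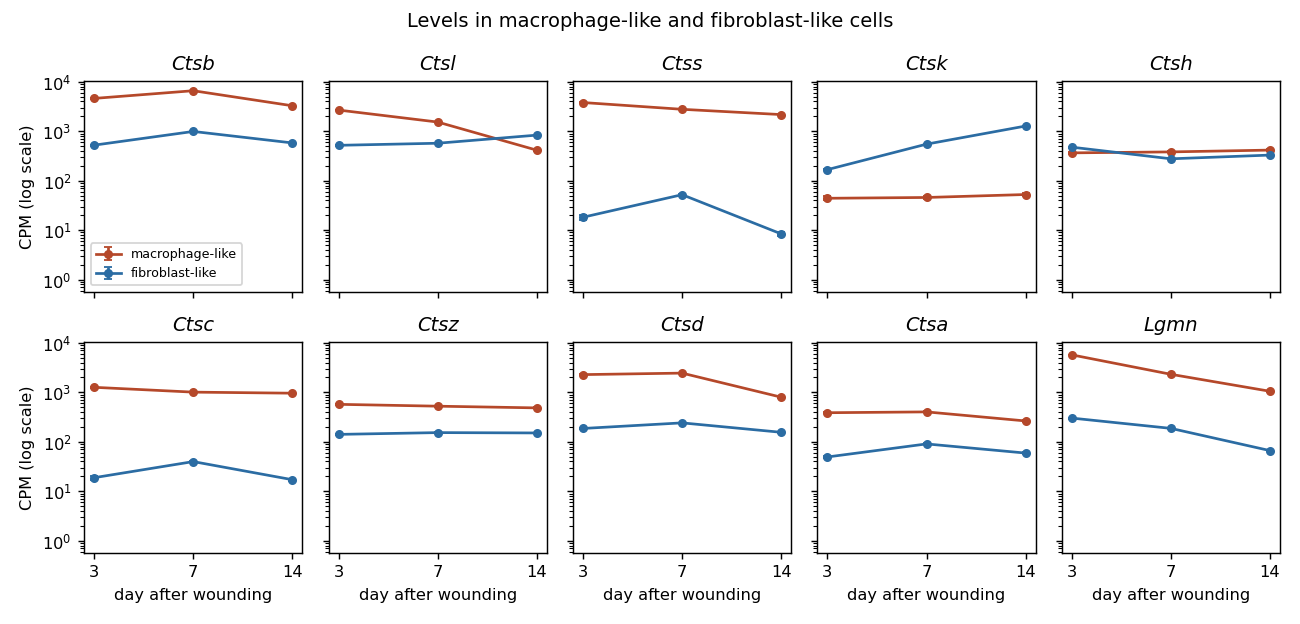
CPM on a log scale (vertical) against day (horizontal) for each gene, in macrophage-like (red) and fibroblast-like (blue) cells; bars are 95% counting intervals, mostly smaller than the points. The lines cross for *Ctsl* between Day 7 and Day 14, diverge for *Ctsk*, and run close together for *Ctsh*, where the 6 levels lie between 278 and 477 CPM.

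*Ctsd* (ENSMUSG00000007891, chr7:142375911-142388038, minus strand) and *Ctsb* (ENSMUSG00000021939, chr14:63122462-63145923, plus strand) were highest in macrophage-like cells on Day 7 and lowest on Day 14. *Ctsd* was 2279 CPM (95% interval 2252 to 2306) on Day 3, 2445 CPM (95% interval 2426 to 2463) on Day 7 and 797 CPM (95% interval 781 to 813) on Day 14. *Ctsb* was 4616 CPM (95% interval 4578 to 4654) on Day 3, 6607 CPM (95% interval 6576 to 6638) on Day 7 and 3278 CPM (95% interval 3246 to 3309.8) on Day 14. From Day 7 to Day 14 *Ctsd* was 3.07-fold lower (log2 ratio -1.62, 95% interval -1.65 to -1.59) and *Ctsb* 2.02-fold lower (log2 ratio -1.01, 95% interval -1.03 to -0.996). With *Ctsl*, 3.70-fold lower, and *Lgmn* they were the 4 of 10 members at least 2-fold lower on Day 14 than on Day 7 in macrophage-like cells, against 2.92% of 3013 genes, and 0 of 10 were 2-fold higher, against 3.02%. At a clustering resolution of 0.5 the log2 ratios of *Ctsb* and *Lgmn* were -0.84 and -0.92, short of 2-fold, and *Ctsb* was at -0.93 where each library was clustered alone. *Ctsa* (ENSMUSG00000017760, chr2:164832873-164841032, plus strand), the carboxypeptidase that also shields beta-galactosidase and neuraminidase 1, was 387, 402 and 264 CPM on the 3 days, with a log2 ratio of -0.61 from Day 7 to Day 14.

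The 4 members with CACGTG in a promoter thus had log2 ratios of -0.61, -1.62, -1.89 and -1.14 for *Ctsa*, *Ctsd*, *Ctsl* and *Lgmn*. The 4 whose promoters lacked it, *Ctsc*, *Ctsk*, *Ctss* and *Ctsz*, had -0.071, 0.20, -0.35 and -0.11. In dendritic cell-like cells of the same libraries the values from Day 7 to Day 14 were -0.91, -2.02, -1.17 and -1.49 with the motif. Those without it were -0.084, 0.65, -0.11 and -0.33, with *Ctsk* under 50 CPM. From Day 3 to Day 7 in macrophage-like cells the values were 0.056, 0.10, -0.80 and -1.31 with the motif and -0.32, 0.053, -0.45 and -0.12 without it. From Day 7 to Day 14 in fibroblast-like cells they were -0.61, -0.63, 0.54 and -1.49 with it and -1.22, 1.22, -2.63 and -0.023 without. *Ctsk* in macrophage-like cells and *Ctss* in fibroblast-like cells are listed, but, as explained further on, are not read as changes in those classes. These comparisons describe 8 genes whose values were known. All genes with and without the motif were not compared, so no difference linked to the motif is read from them. Of the 4 factors, 2 were tested in macrophage-like cells from Day 7 to Day 14, and 0 of 2 passed 2-fold, with log2 ratios of -0.46 for *Mitf* and -0.19 for *Tfe3*. *Tfec*, under the 50 CPM needed to be tested, was 29.2, 31.6 and 14.2 CPM on Days 3, 7 and 14 (log2 ratio -1.16, 95% interval -1.40 to -0.92, from Day 7 to Day 14). *Mitf* was 94.5, 70.5 and 51.3 CPM in macrophage-like cells on Days 3, 7 and 14, *Tfe3* 88.2, 77.0 and 67.4 CPM, and *Tfeb* 12.7, 18.9 and 11.1 CPM.

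The lower Day 14 levels were present inside the macrophage-like clusters. Of 6 clusters with 50 or more cells on both days, *Lgmn* was lower on Day 14 in 6, with log2 ratios from -1.47 to -0.95. *Ctsl* was lower in 6, from -2.03 to -0.83, *Ctsd* in 6, from -1.82 to -1.16, *Ctsb* in 6, from -1.06 to -0.77, and *Ctsa* in 6, from -0.77 to -0.36. *Ctsh* lay between 0.048 and 0.40 in the 6, and the intervals of 4 of them included 0. *Ctsk*, low in these cells, was higher in 6, from 0.57 to 0.98, while the class as a whole was at 0.20, and the intervals of 2 of the 6 included 0. At the fibroblast ratio to *Col1a1*, 40.9% of the macrophage *Ctsk* of Day 7 and 99.3% of that of Day 14 would be fibroblast transcript, so these values are not read as a change in macrophages. From Day 3 to Day 7 the values of the class and of its clusters differed. *Ctsb* was 0.52 on the log2 scale over all macrophage-like cells, but between -0.079 and 0.063 in the 4 clusters with both days, and *Ctsd* was 0.10 over all cells but -0.80 to -0.27 in the 4 clusters. *Lgmn* remained lower in each of these 4, from -2.06 to -1.47.

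**Figure D3:**
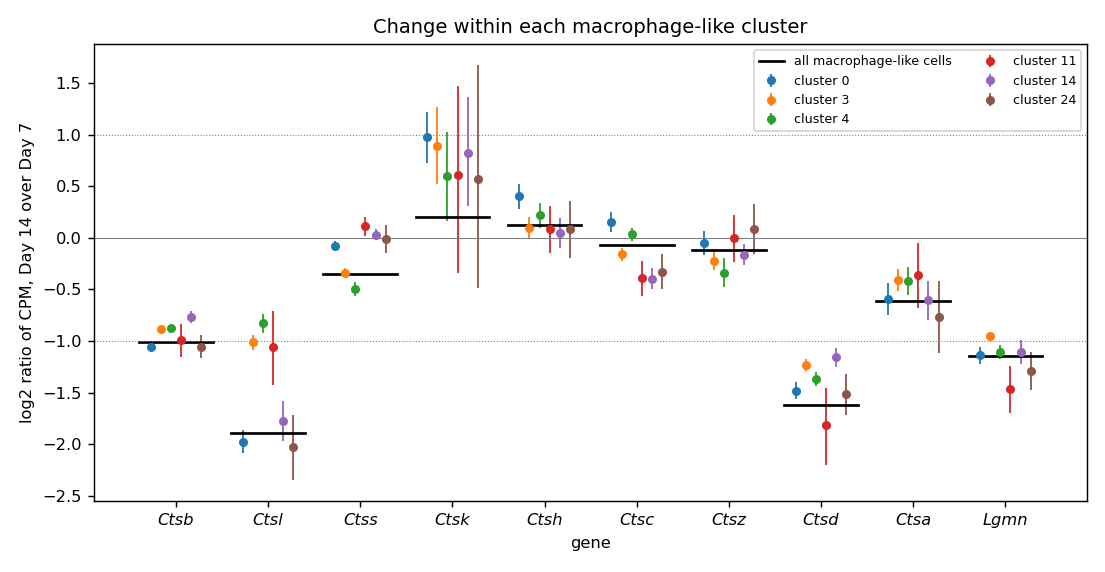
Log2 ratio of CPM, Day 14 over Day 7, for each gene in each of 6 macrophage-like clusters (coloured points with 95% counting intervals) and over all macrophage-like cells (black bars); dotted lines mark 2-fold. For *Lgmn*, *Ctsl*, *Ctsd*, *Ctsb* and *Ctsa* all 6 points lie below 0, and for *Ctsk* all 6 lie above the bar of the whole class.

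The clusters differed more in some members than in others. On Day 7 *Ctsb* ran from 1668 CPM in the cluster led by *Ly6c2* and *Gpr141* to 8093 CPM in the cluster led by *Cd163* and *Cbr2*, a 4.85-fold range over 7 clusters. *Ctsl* ran from 354 CPM in the *Ly6c2* cluster to 2287 CPM in the cluster led by *Mmp12* and *Cd36*. *Ctsd* on that day was 3297 CPM in the *Mmp12* cluster and 533 CPM in the *Ly6c2* cluster. *Ctsh* had the smallest range of the 10 members on Day 7, 1.40-fold, from 299 to 419.8 CPM. *Ctsc*, which activates the serine proteases of granules, was highest in the *Cd163* cluster on all 3 days, at 1566, 1499 and 1538 CPM, whereas *Ctss* was highest in the *Mmp12* cluster, at 4503, 3465 and 3283 CPM.

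*Ctss* (ENSMUSG00000038642, chr3:95526786-95556403, plus strand), *Ctsc* (ENSMUSG00000030560, chr7:88278085-88310888, plus strand) and *Ctsz* (ENSMUSG00000016256, chr2:174427493-174439039, minus strand) had log2 ratios of -0.35, -0.071 and -0.11 from Day 7 to Day 14 in macrophage-like cells. *Ctss* was 3813 CPM (95% interval 3778 to 3847) on Day 3, 2782 CPM (95% interval 2762 to 2802) on Day 7 and 2176 CPM (95% interval 2149.6 to 2202) on Day 14 in macrophage-like cells. *Ctsc* was 1262, 1008 and 960.0 CPM and *Ctsz*, a carboxypeptidase, 572, 524 and 484 CPM on the 3 days. None of the 3 was 2-fold lower at either step. The share of macrophage-like cells with a *Ctss* UMI, with every cell thinned to 500 UMIs, was 80.5% (78.9 to 81.9%), 67.3% (66.4 to 68.3%) and 56.1% (54.4 to 57.9%), and 98.2%, 94.7% and 93.7% before thinning. In fibroblast-like cells, where *Ctss* is set beside *C1qb* further on, the thinned shares were 1.48% (0.546 to 3.20%), 2.71% (2.32 to 3.16%) and 0.51% (0.361 to 0.699%), and the unthinned 32.1%, 28.3% and 6.42%.

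Dendritic cell-like cells, 218, 1112 and 506 on the 3 days, were near macrophage-like cells in *Ctsh* and *Ctsz* and far below them in *Ctsb*, *Ctsl* and *Ctsd*. *Ctss*, which helps load MHC class II molecules in these cells, was 2327 CPM (95% interval 2249.9 to 2407) on Day 3, 1424 CPM (95% interval 1385 to 1465) on Day 7 and 1316 CPM (95% interval 1269 to 1364) on Day 14. *Ctsz* was 474, 412 and 326 CPM, *Ctsb* 429.9, 604 and 344 CPM and *Ctsd* 195, 181 and 44.6 CPM. *Ctsh* (ENSMUSG00000032359, chr9:90054152-90076089, plus strand), an aminopeptidase, was 514, 389 and 353 CPM, close to its 366, 383 and 417 CPM in macrophage-like cells and 477, 278 and 330.3 CPM in fibroblast-like cells. *Ctsl* was 70.1, 103 and 45.9 CPM in dendritic cell-like cells. On Day 14, 3 of 9 members tested in this class, *Ctsd*, *Ctsl* and *Lgmn*, were at least 2-fold below Day 7, against 6.59% of 2839 genes, and 0 of 9 were 2-fold above it, against 2.89%, with 506 cells on Day 14. From Day 3 to Day 7 *Lgmn* alone was at least 2-fold lower, 1 of 9 against 11.7% of all genes tested, and 0 of 9 were 2-fold higher, against 1.65%. Of the 8 dendritic cell markers, 5, 6 and 5 reached 50 CPM in these cells on Days 3, 7 and 14, with sums of 3021, 2364 and 1929 CPM. Their macrophage markers summed to 1037, 1371 and 2396 CPM, with 5, 5 and 6 of 8 at 50 CPM or more, and the part of these in the member levels was not tested. The cluster led by *Ccl22* and *Ccr7* had more *Ctsh* than the cluster led by *Cd209a* in each library, 731 against 467 CPM, 445 against 369.8 CPM and 439 against 337 CPM, and less *Ctss*, 1355 against 2539 CPM, 905 against 1599 CPM and 966 against 1378 CPM.

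The genes of MHC class II antigen processing were higher on Day 14 in macrophage-like cells, while 8 of the 10 members were below their Day 7 level and *Ctsh* and *Ctsk* were not. *Cd74*, the invariant chain that cathepsin S cuts, was 2516, 2707 and 11094 CPM, while *Ctss* on Day 14 was 1.28-fold below Day 7. All 6 listed genes, *Cd74*, *H2-Aa*, *H2-Ab1*, *H2-Eb1*, *H2-DMa* and *H2-DMb1*, were at least 2-fold higher on Day 14 than on Day 7, against 3.02% of all genes tested, with a median log2 ratio of 1.96 beside 0.0045 over all genes tested and -0.48 over the members. These are sums over the class, whose cells lay in different clusters on the 2 days, with 4318 of 9478 on Day 7 and 437 of 3151 on Day 14 in the *Mmp12* cluster, and the values of these 6 genes within clusters were not computed. In dendritic cell-like cells *Cd74* was 16209.9, 12203 and 21924 CPM.

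*Ctsk* (ENSMUSG00000028111, chr3:95499256-95509362, plus strand) was the fibroblast member. In fibroblast-like cells it was 168 CPM (95% interval 162 to 174) on Day 3, 549 CPM (95% interval 544 to 555) on Day 7 and 1277 CPM (95% interval 1269 to 1285) on Day 14. It was 3.27-fold higher on Day 7 than on Day 3 (log2 ratio 1.71, 95% interval 1.66 to 1.76) and 2.32-fold higher on Day 14 than on Day 7 (log2 ratio 1.22, 95% interval 1.20 to 1.23). The share of fibroblast-like cells with a *Ctsk* UMI, at 500 UMIs a cell, was 10.1% (7.36 to 13.5%), 22.1% (21.0 to 23.1%) and 37.4% (36.3 to 38.5%), against 0% (0 to 1.68%), 0.899% (0.432 to 1.65%) and 1.19% (0.436 to 2.56%) of dendritic cell-like cells, whose median depth was 6969, 3036 and 4531 UMIs. Before thinning the fibroblast share was 94.8%, 91.7% and 88.7%, an order opposite to that of the thinned shares, with the deepest cells on Day 3, and 1.38%, 5.49% and 10.9% of dendritic cell-like cells had a UMI. *Ctsk* and *Ctss* lie next to each other on chromosome 3, with 17423 bases and no annotated gene between them, and were at opposite ends in these classes: on Day 14 the macrophage-like over fibroblast-like log2 ratio was 8.01 for *Ctss* and -4.60 for *Ctsk*.

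In fibroblast-like cells, 2 of 9 members, *Ctsk* and *Ctss*, were at least 2-fold higher on Day 7 than on Day 3, against 5.63% of 3217 genes, and 0 of 9 were 2-fold lower, against 11.1%. *Ctss* reached the 50 CPM needed to be tested on Day 7 alone, at 52.3 CPM, and as its values beside *C1qb* show, its fibroblast level is not read as a difference between days, which leaves *Ctsk*. The median log2 ratio of all genes tested was -0.27 in this comparison and -0.068 from Day 7 to Day 14. Relative to the former median *Ctsa* and *Ctsb* also passed 2-fold, with log2 ratios of 1.15 and 1.19 in place of 0.88 and 0.92. Of the genes tested, 6.99% lay above *Ctsa* and 6.37% above *Ctsb*. The 5.63% is for the limit without this shift, and the share past the shifted limit is not given. From Day 7 to Day 14 *Ctsk* alone was at least 2-fold higher, 1 of 9 against 3.34% of 2813 genes, while *Ctss* and *Lgmn* were at least 2-fold lower, 2 of 9 against 3.95%, and for the same reason only *Lgmn* is read. *Ctsb* in fibroblast-like cells was 524 CPM (95% interval 514 to 535) on Day 3, 992 CPM (95% interval 985 to 1000.1) on Day 7 and 581 CPM (95% interval 576 to 587) on Day 14. *Ctsd* was 186, 241 and 155 CPM, *Ctsa* 49.3, 90.5 and 59.1 CPM and *Ctsz* 141, 153 and 151 CPM.

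*Ctsk* varied among fibroblast-like clusters. On Day 14 it ran from 629 CPM in the cluster led by *Col18a1* and *Kera* to 2157 CPM in the cluster led by *Igfbp2* and *Gal*, over 6 clusters. A further cluster, led by *Slc26a7* and *Prlr*, was at 116 CPM, but it met 6 of the 8 fibroblast markers where the other 6 clusters met 8, its 10 leading genes include *Lef1* and *Bmp4*, and its median depth was 2298.5 UMIs, so it is given apart. The *Igfbp2* cluster reached 50 cells only on Day 14, with 1452 cells, and the cluster led by *Mgp* and *Cilp*, with 3283 cells on Day 14, had 1077 CPM on Day 7 and 1268 CPM on Day 14. *Ctsk* was higher on Day 14 in 4 of the 5 clusters with both days, the *Slc26a7* cluster among them with an interval that included 0, with log2 ratios from -0.10 to 0.88, all below the 1.22 of the whole class. From Day 3 to Day 7 it was higher in both clusters that could be compared, by 1.04 and 1.28. Unlike *Ctsk*, *Ctsl* was highest in the cluster led by *Edn1* and *Akr1c18*, at 1053 CPM on Day 14 against 599 CPM in the *Igfbp2* cluster. *Ctsh* on Day 14 ran from 112 CPM in the *Col18a1* cluster to 469 CPM in the *Igfbp2* cluster over the same 6 clusters, and was 44.9 CPM in the *Slc26a7* cluster. Between Day 7 and Day 14 *Lgmn*, *Ctsb* and *Ctsd* were lower in the 4 clusters with both days other than the *Slc26a7* cluster, with log2 ratios from -1.34 to -1.05, from -0.96 to -0.23 and from -0.89 to -0.39. The *Slc26a7* cluster gave -3.51, -2.74 and -2.82, with 64 cells on Day 7 in which *Ctss* was 409 CPM against 52.3 CPM in the whole class.

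**Figure D4:**
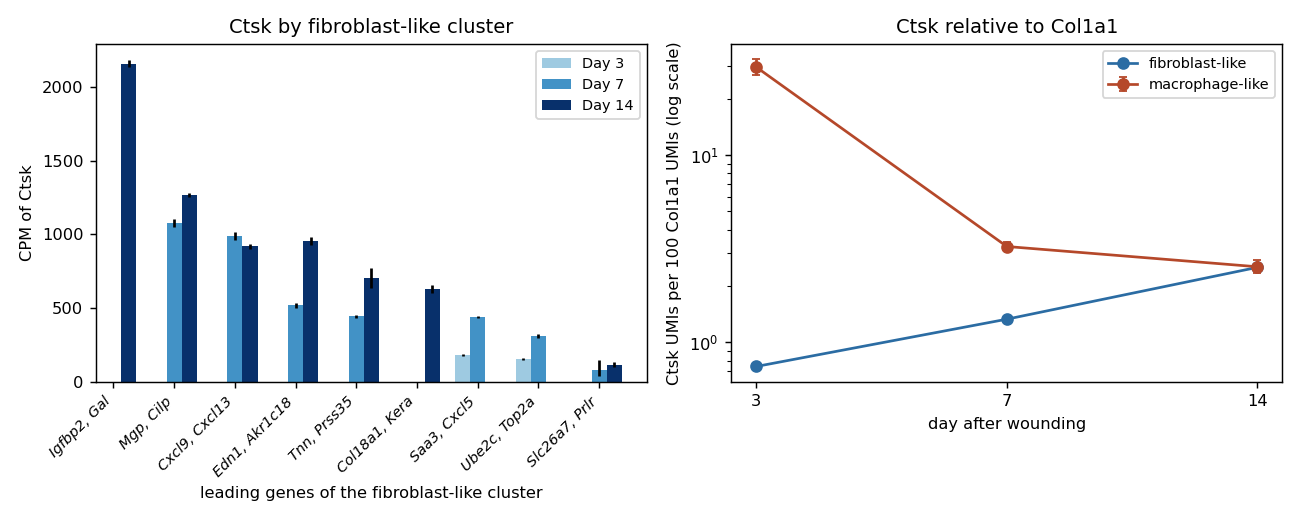
Left, CPM of *Ctsk* (bars start at 0, with 95% counting intervals) in fibroblast-like clusters of 50 or more cells, named by leading genes, by day; right, *Ctsk* UMIs per 100 *Col1a1* UMIs on a log scale by day in fibroblast-like and macrophage-like cells. The *Igfbp2* cluster reaches 2157 CPM, and the lines on the right start at 0.744 and 29.5 on Day 3 and meet at 2.51 and 2.53 on Day 14.

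Because transcripts of each class were also counted in cells of the other, members were set beside a transcript of the other class. *Ctsk* in macrophage-like cells was 44.3 CPM (95% interval 40.6 to 48.1) on Day 3, 45.9 CPM (95% interval 43.4 to 48.6) on Day 7 and 52.7 CPM (95% interval 48.7 to 56.9) on Day 14. Per 100 *Col1a1* UMIs, a fibroblast transcript, it was 29.5 (95% interval 26.7 to 32.4) on Day 3, against 0.744 in fibroblast-like cells. On Day 7 the values were 3.25 (3.07 to 3.44) and 1.33, and on Day 14 they were 2.53 (2.34 to 2.74) and 2.51. At the fibroblast ratio the *Col1a1* UMIs of macrophage-like cells would bring 1.12 CPM of *Ctsk* on Day 3, 18.8 on Day 7 and 52.3 on Day 14, so the Day 14 level equalled what the fibroblast ratio gives and the Day 3 level was far above it. Dendritic cell-like cells of Day 14 had 1.58 (1.22 to 2.01) per 100 *Col1a1* UMIs, below the fibroblast ratio. That ratio may thus overstate what is carried, and the part of fibroblast transcript in macrophage *Ctsk* was not tested. On Day 3 *Ctsk* was 63.1 CPM in the *Mmp12* cluster and 46.2 CPM in the cluster led by *Arg1* and *Chil3*, with no UMI in the 82 cells of the *Ly6c2* cluster. The *Mmp12* cluster was at 73.4 CPM on Day 7 and 144 CPM (95% interval 123 to 168) on Day 14. The other macrophage-like clusters of Day 14 lay between 29.4 and 47.4 CPM. The ratio to *Col1a1* is for the whole class and is not given by cluster.

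*Ctss* in fibroblast-like cells was 18.3, 52.3 and 8.44 CPM. Per 100 UMIs of *C1qb*, a macrophage transcript, it was 540.3, 139.8 and 51.5 in fibroblast-like cells, against 492, 169 and 67.6 in macrophage-like cells. The fibroblast level of *Ctss* was therefore no higher than its *C1qb* would bring on Days 7 and 14, and within counting error of it on Day 3, and its differences between days are not read as differences in fibroblasts. *C1qb* itself was 3.39, 37.4 and 16.4 CPM there. At the macrophage ratio it would bring 8.28%, 28.1% and 8.06% of fibroblast *Lgmn*, 5.35%, 23.0% and 2.61% of *Ctsd*, 3.85%, 15.1% and 2.87% of *Ctsb*, and 2.25%, 6.08% and 0.253% of *Ctsl*. For *Ctsc*, at 18.8, 39.8 and 17.1 CPM, the shares were 29.3%, 57.5% and 28.6%.

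Neutrophil-like cells held *Ctsb*, at 1029 CPM (95% interval 972 to 1089) on Day 3 and 1493 CPM (95% interval 1428 to 1562) on Day 7, and *Ctsd*, at 867 CPM (95% interval 814 to 921) and 864 CPM (95% interval 814 to 916). *Ctss* in them was 121 and 368 CPM on those days. Their macrophage markers summed to 399 CPM on Day 3, with 1 of 8 at 50 CPM or more, and to 1473 CPM on Day 7, with 7 of 8, against 7945 and 12594 CPM in macrophage-like cells, and the part of macrophage transcript in these *Ctsb*, *Ctsd* and *Ctss* values was not tested. *Ctsk* in them was 5.12 and 52.6 CPM, with 1.38 *Ctsk* UMIs per 100 *Col1a1* UMIs on Day 7 against 1.33 in fibroblast-like cells. Day 14 had 21 neutrophil-like cells, in which *Ctsb* was 744 CPM (95% interval 455 to 1149). In endothelial cell-like cells *Ctsb* was 828 CPM on Day 7 and 333 CPM on Day 14, and *Ctsl* 384 and 345 CPM. Pericyte-like cells had 171 and 375 CPM of *Ctsl* and 111 and 181 CPM of *Ctsk* on these days, and 539.9 and 229 CPM of *Ctsb*. Fibroblast markers summed to 15372 and 11575 CPM in pericyte-like cells, with 6 and 7 of 8 at 50 CPM or more, against 115838 and 138395 CPM in fibroblast-like cells, and their part in the *Ctsk* and *Ctsl* values was not tested. Nor was that of the macrophage markers, lower on Day 14 in pericyte-like and endothelial cell-like cells as given for *Lgmn*, in the *Ctsb* values. A cluster of 95 cells on Day 7 led by *Siglech* and *Ccr9*, which was given no class name, had 1976 CPM of *Ctsb*, 953 CPM of *Ctsl* and 861 CPM of *Ctsh*, the last above the level of the macrophage-like and fibroblast-like classes of that day. Epithelial cell-like cells of Day 14 had 258 CPM of *Ctsb*, 169 of *Ctsd* and 189 of *Ctsl*.

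Of the other cathepsins, *Ctsf* was a fibroblast transcript at 7.03, 31.2 and 57.2 CPM on Days 3, 7 and 14, *Ctso* lay between 18.8 and 31.8 CPM in fibroblast-like and macrophage-like cells, and *Ctse*, *Ctsg* and *Ctsw* stayed under 1 CPM in both.

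Among the inhibitors, *Cst3*, the secreted cystatin C, and *Cstb*, the cytosolic stefin B, were the ones tested in macrophage-like and fibroblast-like cells, while stefins of the *Stfa* group exceeded *Cst3* in the neutrophil-like cells of Days 3 and 7 and the epithelial cell-like cells of Day 7. *Cst3* was 1201, 1057 and 2296 CPM in macrophage-like cells, 2765, 3835 and 9692 CPM in dendritic cell-like cells and 234, 305 and 603 CPM in fibroblast-like cells, so that it was highest on Day 14 in each while most proteases of the macrophage-like cells were lowest. It was the 1 of 2 inhibitors tested that was at least 2-fold higher on Day 14 than on Day 7 in macrophage-like cells, against 3.02% of all genes tested. As for the MHC class II genes, this is a sum over the class, and values of *Cst3* within clusters are not given. *Cstb* was 1214, 708 and 736 CPM in macrophage-like cells. *Stfa2l1*, a stefin of granulocytes, was 1156 CPM on Day 3 and 505 CPM on Day 7 in neutrophil-like cells, and at most 2.61 CPM in macrophage-like and fibroblast-like cells. In the 44 epithelial cell-like cells of Day 7, *BC100530* was 2795 CPM, *Stfa3* 864 CPM and *Stfa1* 794 CPM, beside 365 CPM of *Cst3* and 605 CPM of *Cstb*. In the 704 of Day 14 they were 418, 329.7 and 53.5 CPM, below *Cst3* and *Cstb* at 954 and 788 CPM. *Cst6*, of the same list, was 406 CPM in the epithelial cell-like cells of Day 7 and 964 CPM in those of Day 14. The stefin genes are close copies of one another, so their values are uncertain.

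The wider lysosomal lists had medians below 0 in macrophage-like cells from Day 7 to Day 14, as the members did with -0.48, and no difference between the lists was tested. Of 20 hydrolases and cofactors tested, 2 were at least 2-fold lower, *Psap*, the saposin precursor, and *Acp5*, tartrate-resistant acid phosphatase, and 0 were higher, against 2.92% and 3.02% of all genes tested, with a median log2 ratio of -0.30. *Psap* was 6192, 6031 and 2966 CPM, and *Gla* was the highest of the list by ratio, at 0.24. Of 14 membrane and pump genes, 0 were lower and 0 higher past 2-fold, with a median of -0.27, from *Tcirg1* at -0.76 to *Cd63* at 0.17. All 3 sorting genes tested were below 0, from *Grn* at -0.76 to *M6pr* at -0.52, none past 2-fold. In fibroblast-like cells from Day 7 to Day 14 no gene of these 3 lists passed 2-fold, and their medians were -0.023, 0.064 and -0.40.

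**Figure D5:**
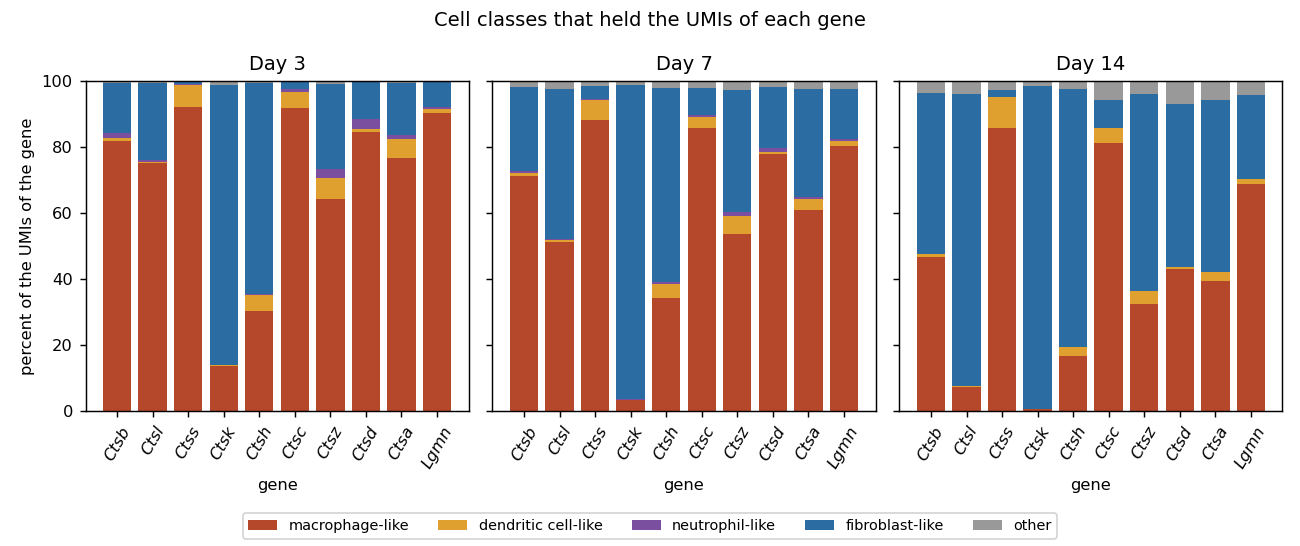
Percent of the UMIs of each gene (vertical, 0 to 100) held by each cell class in each library (panels), with all other classes in grey. Macrophage-like cells (red) hold 81.7% of *Ctsb* on Day 3 and 46.7% on Day 14, while *Ctss* stays with them at 92.1% and 85.7%.

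Over all kept cells, both the make-up of the library and the level within classes differed between days. Macrophage-like cells gave 34.6%, 26.7% and 12.7% of the UMIs on Days 3, 7 and 14, and fibroblast-like cells 55.9%, 63.4% and 74.6%. From Day 7 to Day 14, 6 of 10 members were at least 2-fold lower in the whole library, against 5.5% of 3038 genes, and *Ctsk* was 2-fold higher, 1 of 10 against 4.15%. From Day 3 to Day 7 *Lgmn* was the 1 of 10 lower, against 10.3%, a count that was 2 by the mean of the CPM of each cell and 3 with cells thinned to 2000 UMIs, and *Ctsk* the 1 of 10 higher, against 3.93%. The change in a library total was split into a part from the share of UMIs of each class and a part from the level within classes. *Ctsb* was 2479 CPM on Day 7 and 889 CPM on Day 14, a difference of -1589.9 CPM, of which -602 came from make-up and -988 from level. For *Ctsc* the difference of -164 CPM was mostly make-up, -129 against -34.9 from level, as it was for *Ctss*, -358 against -162. For *Ctsk*, 508 of 606 CPM came from level within classes, which includes shifts among the clusters of a class. The *Igfbp2* cluster, with the most *Ctsk* on Day 14, had 37 cells on Day 7 and 1452 on Day 14. *Lgmn* between Day 3 and Day 7 differed by -1422 CPM, -1124 of it from level.

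The genes whose pattern over 17 combinations of class and day (50 or more cells) was most like each member were found by Pearson's r of log2(CPM + 1) among 6601 genes. The 17 points share 3 libraries, and the r is a description. For *Ctss* they were *Ms4a6c* (0.99) and *Fcgr2b* (0.99), for *Ctsc* *Clec12a* (0.96) and *Fermt3* (0.95), for *Ctsk* *Gpx3* (0.92) and *Copz2* (0.92) and for *Ctsl* *Lhfpl2* (0.91) and *Fam20c* (0.89). For *Ctsb* they were *Il10* (0.92) and *Cacna1d* (0.91), for *Ctsd* *Rnf128* (0.92) and *Cltc* (0.91), for *Lgmn* *Grn* (0.94) and *Mfsd1* (0.92), for *Ctsa* *Tmem106a* (0.97) and *Pid1* (0.95), for *Ctsz* *Arpc1b* (0.95) and *Rassf2* (0.94) and for *Ctsh* *Fuca1* (0.88) and *Npc2* (0.87). *Ctsh* had the lowest best match of the 10.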

How the data were processed

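Gene-by-barcode UMI counts of 3 single-cell RNA-Seq libraries (10x Genomics 3′ v3.1) had been deposited by the authors. These whole-number counts were made with Cell Ranger 6.0.0 on mm10, per the submitters' processing notes, and were not normalized. The members and gene lists were chosen with earlier results of these data known, and the rule for naming clusters was adjusted after the clusters had been seen. A barcode was kept as a cell where it had 200 genes and 500 UMIs or more and no more than 10% of its UMIs were mitochondrial, and 92, 1978 and 962 barcodes of Days 3, 7 and 14 were removed as doublets by comparison with simulated pairs. The deposited libraries held 38133650, 120940799 and 112713257 UMIs, of which the transcript *Gm42418* took 3.60%, 11.7% and 6.42%. Cells were clustered with Leiden (leidenalg 0.10.2, igraph 0.11.9) without the members and listed genes, giving 30 clusters. A cluster took the class with the highest marker score over at least 3 markers. It stayed unnamed where a further class scored 0.75 of the best or more, unless its top 10 genes held markers of the best class and none of the other, as in the *Cd209a* cluster, which was named dendritic cell-like although the macrophage score was 0.784 of its own. It also stayed unnamed with few UMIs or under 0.5 of the markers and no marker of its own among the top 10. For each class in each library the counts of its cells were added and divided by their total to give CPM. Exact 95% intervals were Poisson for CPM, conditional binomial for log2 ratios and Clopper-Pearson for shares of cells, and cover counting error alone. The interval of the ratio was tested on simulated data. Genes named are the 10 members, the listed genes of the lysosome, its inhibitors and MHC class II, and the genes nearest each member in pattern. Python 3.11.15, numpy 2.4.6, scipy 1.17.1 and pandas 2.3.3 were used. Alternatives changed the scaling, thinning, cell filters, doublet removal, clustering and limits.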

Additional observations from a re-analysis of the deposited data

Results flagged for a closer look

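Among members tested in both classes, 3 were higher on the later of 2 days in one class and lower in the other, with intervals that excluded 0 and the same sign under every alternative run. Short of these limits, *Ctsz* was at 0.12 in fibroblast-like and -0.12 in macrophage-like cells from Day 3 to Day 7, and *Ctsc*, under 50 CPM in fibroblast-like cells, at 1.08 and -0.32. *Ctsl* met this at both steps, with log2 ratios of 0.14 in fibroblast-like and -0.80 in macrophage-like cells from Day 3 to Day 7, and of 0.54 and -1.89 from Day 7 to Day 14. *Ctsh* was at -0.78 in fibroblast-like and 0.065 in macrophage-like cells from Day 3 to Day 7, but of the 4 macrophage-like clusters with both days 2 were higher and 2 lower, from -0.30 to 0.28. *Ctss* was at 1.52 in fibroblast-like and -0.45 in macrophage-like cells from Day 3 to Day 7, where its fibroblast level lay at the ratio to *C1qb* that macrophage-like cells showed. With 1 library per day, the difference between the classes was not tested for any of them. From Day 3 to Day 7, 9 members were tested in each class. From Day 7 to Day 14, 9 were tested in fibroblast-like and 10 in macrophage-like cells. The share of all genes that met the same rule was not computed, so the 3 are not read as many or few. An interval for counting error can exclude 0 at a small ratio, as for *Ctsh* in macrophage-like cells (0.014 to 0.116). The 2 fibroblast-like clusters present on Days 3 and 7 gave *Ctsl* ratios of -0.069 and -0.047, on the other side of 0 from the class.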

How the results depend on the processing

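Of 90 member ratios, those in fibroblast-like, macrophage-like and all kept cells and between the first 2 of these, 78 had the same sign under every alternative run, as did all 48 of the 48 past 2-fold, and none of these was reversed. The dendritic cell-like ratios were not recomputed under the alternatives. Counts of members past 2-fold changed more often. The share of all genes past the limit under each alternative is not given beside them. A higher or lower count is therefore not read as a result about the members. In fibroblast-like cells from Day 3 to Day 7, 2 members were higher, against 5 with scaling without the 50 most abundant genes or with no doublets removed, 4 with median-of-ratios scaling or a limit of 1.5-fold, and 1 with cells thinned to 2000 UMIs, with at least 500 genes per cell or with doublets removed at the full expected rate. There 0 were lower, and 2 at 1.5-fold. From Day 7 to Day 14 in these cells 2 were lower, against 1 with at least 500 genes or full doublet removal and 5 at 1.5-fold. In macrophage-like cells from Day 3 to Day 7, 1 was lower, against 2 by the mean of the CPM of each cell, with each library clustered alone and at 1.5-fold, and from Day 7 to Day 14, 4 were lower, against 2 at resolution 0.5. On Day 14, 2 were lower in macrophage-like than in fibroblast-like cells, against 1 under scaling without mitochondrial, ribosomal protein genes and *Gm42418*, the mean per cell, thinning, full doublet removal, resolution 0.5, libraries clustered alone and a class given to each cell. Over all cells from Day 3 to Day 7, 1 was lower, against 2 by the mean per cell, 3 with thinning and 4 at 1.5-fold. The cause of these differences was not tested. Thinning to 2000 UMIs left out 578, 3155 and 609 macrophage-like cells of Days 3, 7 and 14. Leaving out barcodes found in more than 1 library was chosen after the data had been seen and changed no count by more than 1.5 times. No paired analysis was possible because each day is 1 library. Depth limits the low members, such as *Ctss* and *Ctsc* in fibroblast-like cells.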
